A study of Homo sapiens with 18 samples.

Results

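The 4 nuclear long noncoding RNAs MALAT1, NEAT1, KCNQ1OT1 and MEG3 were examined for binding by QKI. QKI (Quaking) binds RNA through a KH-type domain, prefers ACUAA-type motifs, and regulates splicing and RNA stability. The members were the peaks that overlapped the interval of 1 of these 4 RNAs on its own strand, on the hg19 build. MALAT1 lies on the plus strand of chromosome 11 (65265233 to 65273940, 8708 nt) and NEAT1 on the same strand of chromosome 11 (65190269 to 65213011, 22743 nt). KCNQ1OT1 lies on the minus strand of chromosome 11 (2629558 to 2721228, 91671 nt) and MEG3 on the plus strand of chromosome 14 (101292445 to 101327363, 34919 nt). Of 879442 clusters listed in 9 libraries, 1112 lay on these RNAs. Of all 889743 lines in the 12 peak lists, 1133 did.

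Binding was mapped by eCLIP: ultraviolet light (400 mJ/cm2) fixed proteins to RNA in intact cells, an antibody to QKI pulled the protein down (the IP), and the bound RNA was sequenced and scored against a size-matched input. All libraries came from HUES6, 1 human embryonic stem cell line, with 3 IP libraries for each of 3 days of cardiomyocyte differentiation. Day 0 cells were pluripotent and had been plated overnight in growth medium. Day 4 cells, called cardiac progenitors in the labels, had received 1.5 uM CHIR, an activator of Wnt signalling, with 1.5 ng/mL of the growth factor BMP4, and then C59, an inhibitor of Wnt secretion, at 100 nM. Day 8 cells had continued with C59, for which the labels give 100 mM at this later step, a conflict not resolved here, and were crosslinked once beating was seen. Separate cultures for the libraries of 1 day are not stated in the labels, so p-values measure the spread between libraries, which may be technical.

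MALAT1 is an abundant RNA of nuclear speckles, the bodies rich in splicing factors. NEAT1 is the scaffold of paraspeckles, and comes as a short isoform and a long isoform that share their 5′ part. KCNQ1OT1 and MEG3 are imprinted RNAs: KCNQ1OT1 is made from the paternal allele, antisense to the potassium channel gene KCNQ1, and silences neighbouring genes in cis, while MEG3 is made from the maternal allele of the DLK1-MEG3 locus. RefSeq lists all 4 genes as long noncoding RNAs.

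A cluster is an interval that the authors scored for enrichment of the IP over input. It is called a passing peak here when the authors' fold was at least 4 (log2 fold of at least 2) with p at or below 0.001. The libraries held 102085 to 187962 clusters and 12695 to 15508 passing peaks at day 0, 63319 to 99552 clusters and 3030 to 7775 passing peaks at day 4, and 52462 to 62897 clusters and 3726 to 10966 passing peaks at day 8. Read depth was unknown, because the files hold no reads. Day 4 replicate 1 had the fewest passing peaks. As a check of the labels, the titin gene TTN, a giant sarcomere protein of heart muscle, had 0 passing peaks in each day 0 library, 9 to 42 at day 4 and 80 to 140 at day 8. RNA levels were not measured, so fewer RNA molecules and less binding per molecule cannot be told apart at any of the RNAs below.

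NEAT1 held passing peaks in all 9 libraries, 99 in total. KCNQ1OT1 held 18, with at least 1 in 7 of 9 libraries. MEG3 also held 18, of which 17 were at day 0. MALAT1 held none in any library. Passing peaks made up 21.2% of the 467 clusters on NEAT1, 10.2% of the 176 on MEG3, 6.50% of the 277 on KCNQ1OT1 and 0% of the 192 on MALAT1, against 8.77% of all clusters of the 9 libraries. On the opposite strand, MALAT1, NEAT1 and MEG3 had no cluster in any library, and KCNQ1OT1 had 1 in 1 library (day 4 replicate 3), which did not pass.

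**Figure D1:**
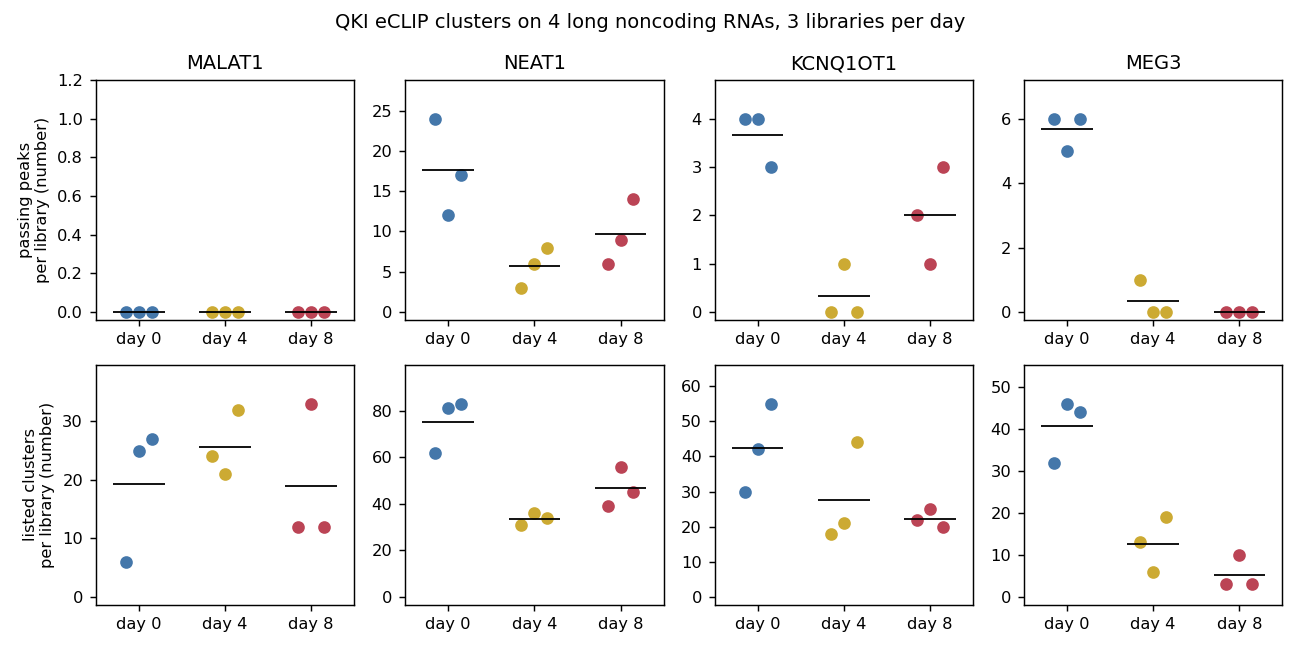
Number of passing peaks (upper row) and of all listed clusters (lower row) per library on MALAT1, NEAT1, KCNQ1OT1 and MEG3; points are the 3 libraries of a day, black lines their mean. MALAT1 stays at 0 passing peaks throughout, and MEG3 has 5 or 6 in each day 0 library and 0 in each day 8 library.

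MALAT1 carried clusters in every library, all of them weak. Day 0 libraries listed 6, 25 and 27 MALAT1 clusters, day 4 libraries 24, 21 and 32, and day 8 libraries 12, 33 and 12. The highest authors' log2 fold of a MALAT1 cluster was 0.85, 1.56 and 1.73 in the day 0 libraries, 1.25, 1.15 and 1.46 in the day 4 libraries, and 1.13, 1.76 and 0.85 in the day 8 libraries. No cluster thus reached the log2 fold of 2, and none of the 3 reproducible lists of the authors held a MALAT1 peak. Of the 192 clusters, 95 had p at or below 0.001 while being enriched less than 4-fold. Of these, 22 were enriched at least 2-fold and 5 had a log2 fold of at least 1.5. One of them, 58 nt wide and at position 6411 to 6468 from the 5′ end in day 8 replicate 2, had a −log10 p at the cap of 400 with a log2 fold of 1.68. Clusters with such a p below 4-fold were also found on NEAT1 (91 of 190) and MEG3 (12 of 30), and on KCNQ1OT1 there were none (0 of 18).

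The weak MALAT1 clusters recurred at the same places. Joining clusters that overlapped or touched gave 30 stretches, of which 11 held a cluster at all 3 days and 4 were seen in 1 library. A stretch of 117 nt at position 6354 to 6470 (chromosome 11, 65271586 to 65271702) held a cluster in 9 of 9 libraries, and its log2 folds lay between 0.08 and 1.68. Its neighbour of 42 nt at position 6553 to 6594 (65271785 to 65271826) held one in 8 libraries, between 0.68 and 1.76. Another 2 stretches, at position 6608 to 6659 (65271840 to 65271891) and 7409 to 7463 (65272641 to 65272695), also held one in 8 libraries, with highest log2 folds of 0.86 and 1.17. These 4 stretches were picked after their values were seen. The first cluster of any library began at position 1288, so the 5′ end of MALAT1 held none.

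The absence of a MALAT1 peak can be read only as far as its number of clusters allows. The 0 of 58, 0 of 77 and 0 of 57 clusters that passed at day 0, day 4 and day 8 allow passing shares of up to 5.17%, 3.90% and 5.26% (3 clusters of the total, counting error only). The upper limits of the 95% Wilson intervals were 6.21%, 4.75% and 6.31%. Over all clusters the shares were 8.78%, 6.36% and 11.9%. These limits pool the clusters of 3 libraries as if independent, although MALAT1 clusters recurred at the same places. Taken 1 library at a time, the upper Wilson limits were 10.4% to 39.0%. Each lay above the share over all clusters of its own library (4.02% to 17.4%), so no single library sets MALAT1 below that share.

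**Figure D2:**
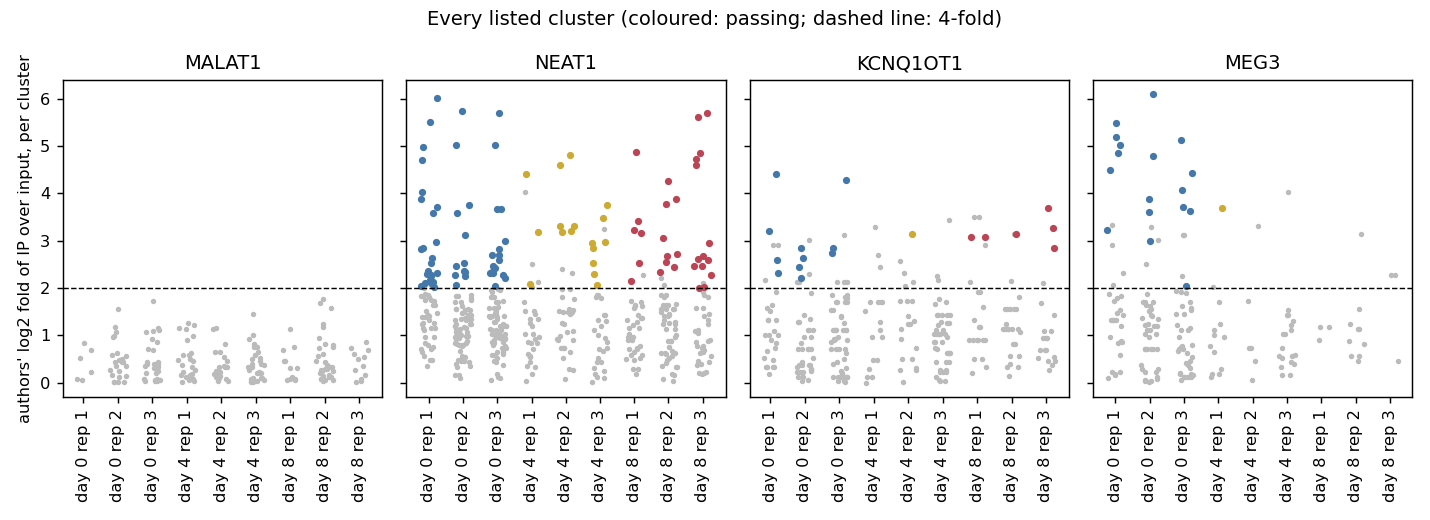
Authors' log2 fold of IP over input for every listed cluster of the 4 RNAs (vertical axis) in each of the 9 libraries (horizontal axis); coloured points passed both thresholds, grey points did not, and the dashed line is 4-fold. All MALAT1 points lie below the line, at 1.76 or less, whereas NEAT1 reaches 6.02 and MEG3 6.10.

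NEAT1 held the most passing peaks per kilobase of interval among the 4 RNAs. Its passing peaks numbered 24, 12 and 17 in the day 0 libraries, 3, 6 and 8 in the day 4 libraries, and 6, 9 and 14 in the day 8 libraries. The day 4 and day 0 numbers did not overlap, while day 8 overlapped with both. As a share of all passing peaks the picture differed: 15.5, 9.45 and 13.01 per 10000 at day 0, 9.90, 7.72 and 20.01 at day 4, and 9.49, 24.2 and 12.8 at day 8. These shares overlapped for every pair of days. Of the clusters on NEAT1, 23.5% passed at day 0 (95% Wilson interval 18.4% to 29.4%), 16.8% at day 4 (10.8% to 25.3%) and 20.7% at day 8 (14.8% to 28.2%), which was above the 8.78%, 6.36% and 11.9% of all clusters. These intervals cover counting error only, and pool 3 libraries that differed. Library by library the shares were 38.7%, 14.8% and 20.5% at day 0, 9.68%, 16.7% and 23.5% at day 4, and 15.4%, 16.1% and 31.1% at day 8. Each was above the share over all clusters of its own library.

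Per kilobase of the genomic interval, passing peaks on NEAT1 ranged from 0.53 to 1.06 at day 0, 0.13 to 0.35 at day 4 and 0.26 to 0.62 at day 8. Exons were not separated from introns in these lengths. On MEG3 the day 0 range was 0.14 to 0.17 and on KCNQ1OT1 0.03 to 0.04. A window of 20 kb around MIAT, another nuclear long noncoding RNA, is given as a side by side description. It held 11.5 to 12.1 passing peaks per kb at day 0, 1.65 to 2.35 at day 4 and 0.85 to 0.95 at day 8. The MIAT peaks were split finely: the 231, 243 and 239 passing peaks of the day 0 libraries formed 31, 32 and 32 footprints of touching or overlapping peaks. The 24, 12 and 17 NEAT1 peaks formed 22, 10 and 14.

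The passing peaks of NEAT1 formed 48 regions when those of all libraries were joined where they overlapped or touched, and 32 of them were seen in 1 library only. This share of 66.7% compares with 52.3% of the 29356 such regions of the whole series. The region with most support was 98 nt wide, at position 3628 to 3725 from the 5′ end (chromosome 11, 65193896 to 65193993), and passed in 9 of 9 libraries. Its highest log2 fold was 6.02, 5.73 and 5.71 in the day 0 libraries, 4.40, 4.61 and 3.49 in the day 4 libraries, and 4.88, 4.25 and 5.71 in the day 8 libraries. It was the only NEAT1 region in 9 libraries, of 544 in the series, and the only one of the 4 RNAs with reproducible peaks in the authors' merged lists of all 3 days.

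A second NEAT1 region, 89 nt at position 9425 to 9513 (65199693 to 65199781), passed in 8 libraries. Its log2 folds were 4.98, 3.60 and 3.67 at day 0, 2.12, 4.81 and 2.53 at day 4, and 3.41, 3.88 and 4.60 at day 8. The library that did not pass was day 4 replicate 1, where the fold was above 4 but the −log10 p was 2.16. The third, 102 nt at position 12489 to 12590 (65202757 to 65202858), passed in 3 of 3 libraries at day 0, 1 of 3 at day 4 and 3 of 3 at day 8. All 9 libraries listed a cluster there. All 3 sites thus held clusters in every library, while passing peaks covered 0.83% to 5.53% of the NEAT1 interval per library.

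Between these sites the signal was uneven. A stretch of 4549 nt at position 15898 to 20446 held no passing peak in any library and 17 clusters over 7 libraries, with a highest log2 fold of 2.02. A site at the very 5′ end, at position 15 to 80 (65190283 to 65190348), was picked after its values were seen. It passed in 2 of 3 day 4 libraries (replicates 1 and 3) and in 0 of 3 at day 0 and at day 8. Clusters below the threshold were listed there in all 3 day 0 libraries, with highest log2 folds of 0.357, 1.006 and 1.197, in day 4 replicate 2 at 0.72 and in day 8 replicate 1 at 0.48. Some sites near the 3′ end passed mainly at day 0. A 79-nt region at position 20447 to 20525 (65210715 to 65210793) passed in 3 of 3 day 0 libraries, 1 of 3 at day 4 and 0 of 3 at day 8. A 92-nt region at 20868 to 20959 (65211136 to 65211227) passed in 3 of 3 at day 0 and in none later, with log2 folds of 2.25, 2.06 and 2.59 at day 0. At that region the day 8 libraries still listed clusters at log2 folds of 0.91, 0.88 and 1.12. A 91-nt region at position 14266 to 14356 (65204534 to 65204624) passed in 3 of 3 libraries at day 0, 0 of 3 at day 4 and 2 of 3 at day 8.

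**Figure D3:**
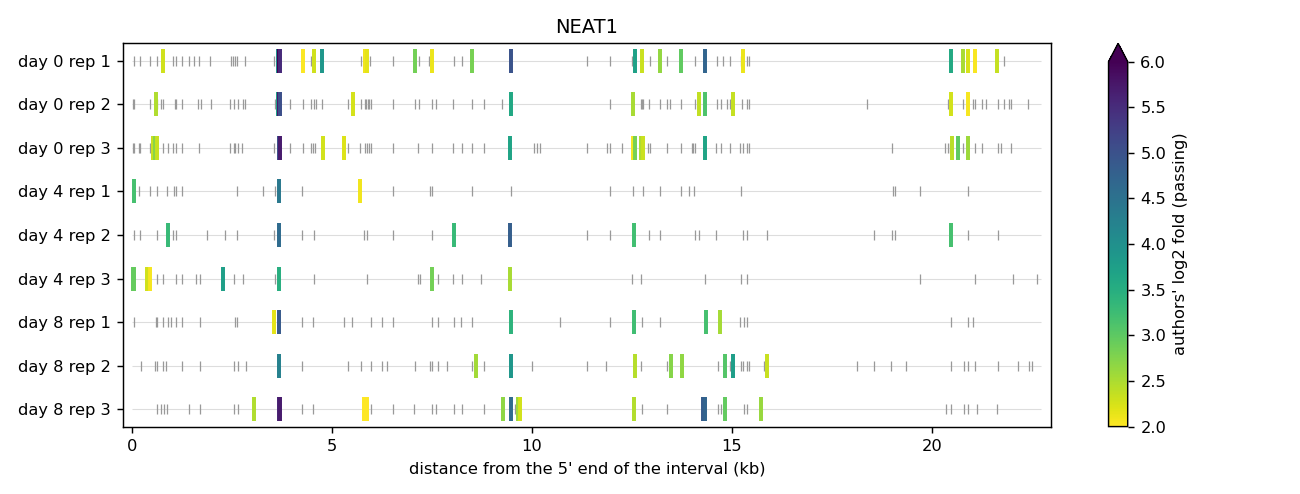
Clusters along NEAT1 (horizontal axis, distance from the 5′ end in kb) in the 9 libraries (rows); tall coloured marks are passing peaks coloured by the authors' log2 fold, short grey marks are other clusters. The column of marks near 3.7 kb, present in all 9 rows, is the region with log2 folds of 3.49 to 6.02, and no passing mark lies between positions 15898 and 20446.

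Passing peaks on KCNQ1OT1 lay mostly at 3 neighbouring sites, which held 16 of 18. Its passing peaks numbered 4, 4 and 3 in the day 0 libraries, 0, 1 and 0 in the day 4 libraries, and 2, 1 and 3 in the day 8 libraries. Day 4 libraries were the lowest and overlapped with day 8 in these numbers, at 1 peak. Of the 18 passing peaks, 17 lay within 3440 nt at position 28776 to 32215, which is 3.75% of the interval. One of these 17 formed a region of its own at position 29494 to 29566 (2691663 to 2691735), in day 0 replicate 1 with a log2 fold of 2.60. The remaining peak was near the 5′ end in day 0 replicate 2, at position 99 to 235.

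The first KCNQ1OT1 site was 182 nt wide at position 28776 to 28957 (chromosome 11, minus strand, 2692272 to 2692453). It passed in 3 of 3 libraries at day 0, 1 of 3 at day 4 and 2 of 3 at day 8, with highest log2 folds of 3.20, 2.64 and 2.75 at day 0 and 2.13, 3.14 and 2.84 at day 8. At day 4 they were 3.14 and 3.44 in the 2 libraries with a cluster there. The second, 90 nt at position 29588 to 29677 (2691552 to 2691641), and the third, 168 nt at 32048 to 32215 (2689014 to 2689181), both passed in 3 of 3 at day 0, 0 of 3 at day 4 and 2 of 3 at day 8. At the second, the day 0 log2 folds were 4.41, 2.85 and 2.84 and the day 8 values 3.08, 1.55 and 3.69. At the third, they were 2.32, 2.44 and 4.29 at day 0 and 3.08 and 3.27 in the 2 day 8 libraries with a cluster. Day 4 replicate 1 had no cluster in the whole 3440-nt stretch, whereas day 4 replicates 2 and 3 had 5 each, of which 1 passed.

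KCNQ1OT1 peaks lay close to the thresholds. Over the 9 libraries 29 clusters were enriched at least 4-fold without reaching p at or below 0.001, and the nearest had a −log10 p of 2.91, against 3.15 for the lowest that passed. Clusters of any fold ended at position 49017, so the last 42.7 kb of the interval held none in any library. The authors' deposited reproducible list of day 0 held 3 KCNQ1OT1 peaks, 1 per site, and those of day 4 and day 8 held 0.

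Nearly all passing peaks on MEG3 were from day 0. Its passing peaks numbered 6, 5 and 6 in the day 0 libraries, 1, 0 and 0 in the day 4 libraries and 0, 0 and 0 in the day 8 libraries, so day 0 stood above every later library. Clusters of any fold numbered 32, 46 and 44 at day 0, 13, 6 and 19 at day 4, and 3, 10 and 3 at day 8. Again no later library reached the lowest day 0 library, although the lists of later days were also shorter.

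The day 0 peaks of MEG3 were packed into its 3′ part, where 14 of the 18 passing peaks lay within 1081 nt at position 27090 to 28170. A 108-nt region at position 27090 to 27197 (chromosome 14, 101319534 to 101319641) had the highest log2 folds, 4.85, 6.10 and 5.12 in the day 0 libraries. The 48-nt region at 28123 to 28170 (101320567 to 101320614) had 4.49, 4.79 and 4.44, and the 104-nt region at 27483 to 27586 (101319927 to 101320030) had 5.49, 3.87 and 4.07. A 114-nt region at 27293 to 27406 (101319737 to 101319850) had 5.20, 2.99 and 3.71. All 4 passed in 3 of 3 day 0 libraries. A neighbouring region at position 27640 to 27688, picked after its values were seen, passed in 2 of 3. In the 1081-nt stretch the day 0 libraries listed 4, 5 and 5 clusters, and every day 4 and day 8 library listed 0. This stretch was drawn around regions that passed only at day 0, so the contrast is not separate support. It held 14 of the 122 day 0 clusters on MEG3. The clusters left at later days lay elsewhere on MEG3, 38 at day 4 and 16 at day 8. The one passing peak at day 4, in replicate 1, lay at position 3161 with a log2 fold of 3.70.

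**Figure D4:**
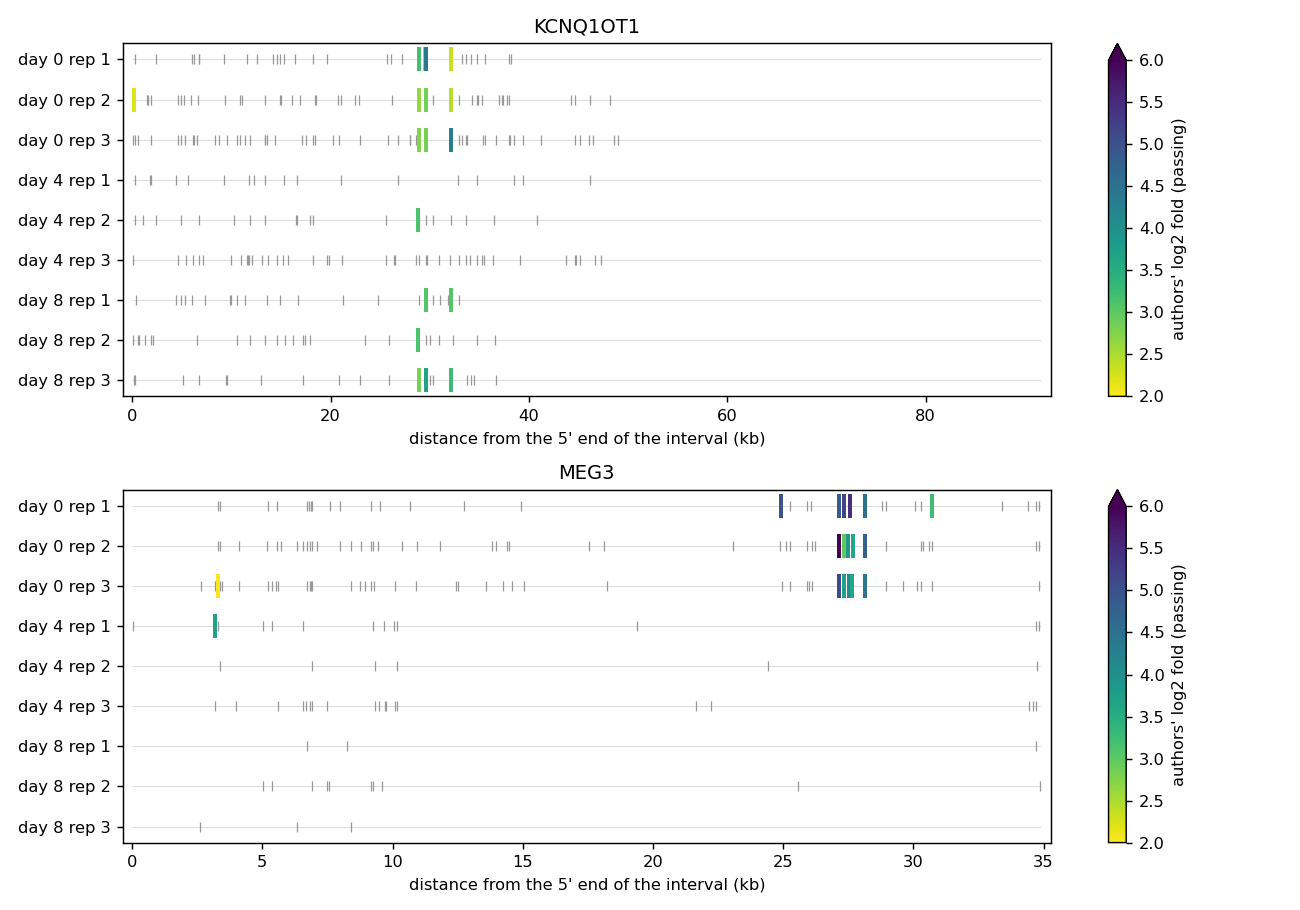
Clusters along KCNQ1OT1 (upper panel) and MEG3 (lower panel), with distance from the 5′ end in kb on the horizontal axis and the 9 libraries in rows; tall coloured marks are passing peaks coloured by the authors' log2 fold, short grey marks are other clusters. KCNQ1OT1 peaks gather at positions 28776 to 32215. The MEG3 group at positions 27090 to 28170 was placed by its day 0 peaks. It has marks in the 3 day 0 rows and none in the 6 later rows.

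Shares of passing peaks were compared between days with limma over 2068 loci, namely NEAT1, KCNQ1OT1, MEG3 and all other passing peaks joined within 20 kb on one strand, each with at least 10 passing peaks over the 9 libraries. MALAT1, with 0, was not tested. For day 8 against day 0, MEG3 was the 1 of the 3 tested RNAs that passed, and it was lower. At this contrast 34.8% of all loci passed, 19.6% lower and 15.2% higher, so 1 call in 3 is near the background. MEG3 averaged 0 per 10000 passing peaks at day 8, against 4.13 ± 0.40 at day 0 (SD, n = 3 each). With 3 peaks over the 3 day 8 libraries as the limit that a count of 0 allows, MEG3 stood at least 2.88-fold lower at day 8 than at day 0. The 95% exact counting interval of the ratio, which also takes in the counting error of day 0, began at 2.10-fold. The limit rests on day 8 replicate 3, the longest list of that day, and was 1.38-fold without it. The fitted log2 difference was -2.51 ± 0.65 (SE, limma adjusted p = 0.00480), where the median locus was at 0.05. MEG3 entered this test only through its day 0 peaks, 17 of 18. Its day 8 counts were all 0, so the spread fitted there reflects list length only. With 3 libraries against 3 an exact permutation test reached p = 0.1, the smallest two-sided value possible. The limma call ended with a pseudocount of 2 (adjusted p = 0.161).

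NEAT1 and KCNQ1OT1 did not pass between day 8 and day 0. NEAT1 averaged 15.5 ± 7.70 per 10000 at day 8, against 12.6 ± 3.03 at day 0, a log2 difference of 0.24 with a 95% interval of -0.65 to 1.14 (limma adjusted p = 0.700). KCNQ1OT1 averaged 2.86 ± 0.26 at day 8, against 2.68 ± 0.44 at day 0, a log2 difference of 0.29 with an interval of -0.71 to 1.30 (limma adjusted p = 0.679). Differences within these intervals could not be told from 0 with 3 libraries a day.

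None of the 3 RNAs passed for day 4 against day 0, where 22.3% of all loci did (14.2% higher and 8.17% lower). The median locus stood at 0.29 in this contrast. The balance of calls depends on the pseudocount. Higher and lower loci numbered 293 and 169 here, 871 and 22 with a pseudocount of 2, and 95 and 327 with one in proportion to library size. MEG3 averaged 1.10 ± 1.91 per 10000 at day 4, against 4.13 ± 0.40 at day 0 (log2 difference -1.50 ± 0.65 SE, limma adjusted p = 0.0957). On summed peaks, 1 at day 4 against 17 at day 0, the ratio of shares was 0.164 (95% exact counting interval 0.00392 to 1.05). Without day 4 replicate 1, which held the single day 4 peak, the log2 difference was -2.32 and passed (limma adjusted p = 0.0111). KCNQ1OT1 averaged 0.43 ± 0.74 at day 4, against 2.68 ± 0.44 at day 0 (log2 difference -0.93 ± 0.49 SE, limma adjusted p = 0.165). The day 4 value rests on 0, 1 and 0 passing peaks. A pseudocount in proportion to library size, which moved the median locus to -0.32, gave KCNQ1OT1 a log2 difference of -1.91 that passed (limma adjusted p = 0.0374). NEAT1 differed by -0.01 (95% interval -0.91 to 0.89, limma adjusted p = 0.993), a difference with no settled sign.

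For day 8 against day 4, 10.7% of all loci passed (5.9% higher and 4.79% lower) and again none of the 3 RNAs. The median locus was at -0.48. KCNQ1OT1 averaged 2.86 ± 0.26 per 10000 at day 8, against 0.43 ± 0.74 at day 4, and the log2 difference of 1.22 ± 0.49 (SE) had an unadjusted p of 0.0190 and a limma adjusted p of 0.112. Measured in covered nucleotides it passed (log2 difference 1.80, limma adjusted p = 0.0136). The summed peaks, 6 at day 8 against 1 at day 4, gave a ratio of shares of 4.23 (95% exact counting interval 0.513 to 194). NEAT1 had a log2 difference of 0.25 (limma adjusted p = 0.744) and MEG3, with 0 peaks at day 8 and 1 at day 4, of -1.01 (limma adjusted p = 0.364).

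**Figure D5:**
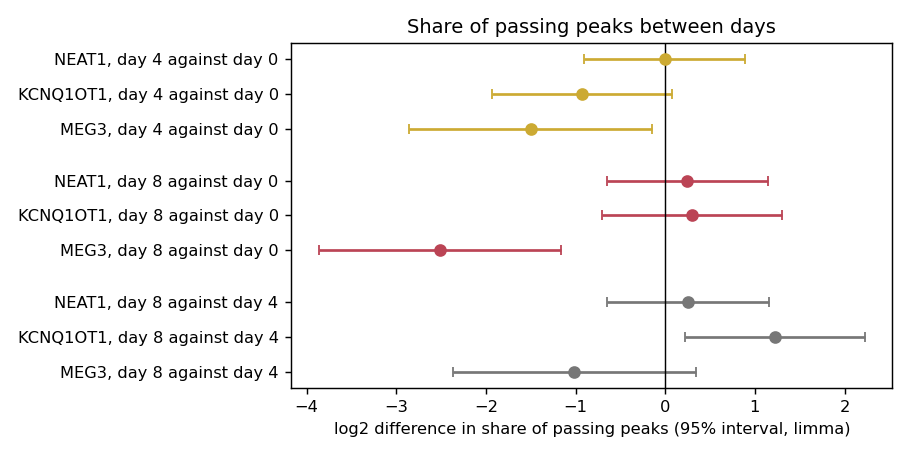
Log2 difference in the share of passing peaks (horizontal axis) for NEAT1, KCNQ1OT1 and MEG3 in the 3 pairs of days, with limma's unadjusted 95% intervals over 9 libraries. MEG3 at day 8 against day 0 lies at -2.51 with an interval from -3.87 to -1.16, and is the only one of the 9 differences past the adjusted threshold. MEG3 entered the test only through its day 0 peaks (17 of 18), and its day 8 counts were all 0. Its interval thus reflects list length at day 8, and the call ended with a pseudocount of 2.

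Counting every listed cluster, weak ones included, brought MALAT1 into the comparison. MALAT1 clusters made up 1.91 to 5.39 per 10000 at day 8 and 3.0 to 3.79 at day 4, against 0.59 to 1.44 at day 0. In number they were 12, 33 and 12 at day 8, 24, 21 and 32 at day 4, and 6, 25 and 27 at day 0. These numbers overlapped for every pair of days, and every list of the later days was shorter than those of day 0. A higher share is thus not a higher number of MALAT1 clusters at day 8. The same limma fit over 9124 loci gave a log2 difference of 1.43 ± 0.41 (SE) for day 8 against day 0 (adjusted p = 0.0154) and 1.63 ± 0.41 for day 4 against day 0 (adjusted p = 0.0106). Both calls ended without day 0 replicate 1, which listed 6 MALAT1 clusters (limma adjusted p = 0.0719 and 0.0514), and the first also without day 8 replicate 2, which listed 33 (0.0860). In this fit 31.3% of all loci passed for day 8 against day 0 (13.5% higher and 17.8% lower), 21.7% for day 4 against day 0 (8.98% higher and 12.7% lower) and 12.9% for day 8 against day 4 (6.19% higher and 6.71% lower). MALAT1 did not pass for day 8 against day 4 (log2 difference -0.19, limma adjusted p = 0.807).

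By the same measure MEG3 was lower at day 8, with 0.48 to 1.63 clusters per 10000, against 2.34 to 3.13 at day 0 (log2 difference -1.65 ± 0.45 SE, limma adjusted p = 0.0117). It stayed past the threshold without each of the 9 libraries in turn (limma adjusted p between 0.00232 and 0.0463). NEAT1 clusters made up 7.15 to 9.15 per 10000 at day 8, against 4.42 to 6.07 at day 0, and 3.42 to 5.14 at day 4. In number they were 39, 56 and 45 at day 8, 62, 81 and 83 at day 0, and 31, 36 and 34 at day 4. Every day 8 library thus listed fewer NEAT1 clusters than any day 0 library, and its list as a whole was shorter too. The log2 differences of the NEAT1 share were 0.68 for day 8 against day 0 (limma adjusted p = 0.0478) and 0.83 for day 8 against day 4 (limma adjusted p = 0.0365). They lost the threshold without day 0 replicate 2 or 3 or day 8 replicate 1 or 2 (limma adjusted p of 0.0719 to 0.172 for the first and 0.0583 to 0.115 for the second), and the second also without day 4 replicate 3 (0.154). KCNQ1OT1 did not pass in any pair of days (log2 differences of 0.49, 0.31 and 0.18 for day 8 against day 0, day 4 against day 0 and day 8 against day 4, with limma adjusted p of 0.181, 0.436 and 0.735).

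Region by region, 62 passing regions lay on NEAT1, KCNQ1OT1 and MEG3. None of them passed in 3 of 3 day 4 libraries and 0 of 3 day 0 libraries, a pattern held by 0.262% of all 29356 regions. The opposite pattern, 0 of 3 at day 4 and 3 of 3 at day 0, was held by 8 of the 62: 4 on MEG3, 2 on NEAT1 and 2 on KCNQ1OT1. This is 12.9%, against 9.11% of all regions. For day 8 and day 0, 0 of the 62 passed in 3 of 3 at day 8 and 0 of 3 at day 0 (1.68% of all regions). In the opposite direction there were 6, 4 on MEG3 and 2 on NEAT1, or 9.68%, against 9.45% of all regions. Between the later days 0 of the 62 passed in 3 of 3 libraries of day 8 and 0 of 3 of day 4 (1.78% of all regions), or the reverse (0.194%). The counts for the RNAs as a group were therefore near those of the whole series. With 8-fold as the threshold, 4 of 23 regions on the RNAs passed in 3 of 3 at day 0 and 0 of 3 at day 4 (17.4%, against 8.02% of all 25002 regions), and 3 of 23 in 3 of 3 at day 0 and 0 of 3 at day 8 (13.04%, against 8.29%).

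The authors' deposited lists of reproducible peaks counted 11 on NEAT1 for day 0, 1 for day 4 and 3 for day 8, of 7778, 947 and 1576 in all. MEG3 had 3 at day 0 and 0 at either later day. The highest authors' log2 fold on NEAT1 in these lists was 5.70 at day 0, 4.50 at day 4 and 5.33 at day 8, each time in the region at position 3628 to 3725. On MEG3 it was 5.51, in the 108-nt region, and on KCNQ1OT1 3.34. Each of these lists stands for 1 day as a whole, without replicates.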

How the data were processed

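The 9 QKI eCLIP IP libraries of HUES6 cells, 3 a day, were grouped by sample title. The 9 inputs entered only through the authors' scores. Reads were processed with cutadapt, STAR and SAMtools on hg19, per the submitters' processing notes, which give no versions. Peak lists are input-normalized, and the reproducible lists hold peaks of at least 4-fold that passed a 3-way IDR comparison, per the file headers. Which peak caller was run is not given in the sources used here. The deposited log2 value of each peak is the authors' log2 fold of IP over input, and the deposited −log10 p is capped at 400. The deposited score column was not used. Folds of different days were not tested against each other. All coordinates are 1-based.

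Peaks were counted per RNA by overlap of at least 1 nt on the same strand. Each locus received the log2 of its share per 10000 passing peaks of a library (0.5 added to the locus, 1 to the library), fitted with limma 3.58.1 in R 4.3.3 (eBayes with a variance trend, all 9 libraries, Benjamini-Hochberg over all loci at 0.05). The fit was run on simulated data with rises at day 8 only. That setting differs from MEG3, with 0 peaks at day 8, and does not bear on its call. Exact counting intervals are Clopper-Pearson at 95%, and cover counting error only. Regions were named by rank, the 3 per RNA that passed in most libraries, plus each found in 3 of 3 libraries on 1 day but 0 of 3 on some other day. Other regions are marked as picked after their values were seen, apart from peaks of 1 library. Those were named to account for all passing peaks of KCNQ1OT1 and for the only day 4 peak of MEG3. The RNAs, lists and tests were chosen with earlier results of these data known. Replicate numbers were not taken as pairs. No hg19 genome was used here, so no sequence or motif was read, and other long noncoding RNAs were not analysed here.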

Additional observations from a re-analysis of the deposited data

How the results depend on the processing

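With few peaks per RNA and no read depth, differences of NEAT1 near 0 had no stable sign, and 1 peak moved MEG3 and KCNQ1OT1. MEG3 at day 8 against day 0 was lower and passed in each fit that held it except pseudocount 2 (log2 difference -0.83). The exact permutation test cannot go below p = 0.1 (difference of mean shares -4.13 per 10000). Most fits reuse the same day 0 peaks and are no separate support. With a replicate block MEG3 was at -2.51 (limma adjusted p = 0.00261), and no other call changed. Same-numbered libraries of different days correlated between -0.15 and 0.31 in their deviations from the day means, so the numbers were not taken as pairs. MEG3 at day 4 against day 0 passed with no minimum of peaks (-1.50). Leaving out 1 library each gave it -2.32 to -0.85.

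KCNQ1OT1 at day 4 against day 0 passed with a pseudocount in proportion to the library (-1.91, chosen after seeing the data), and turned positive with every listed cluster (0.31) and pseudocount 2 (0.29). At day 8 against day 4 it passed in covered nucleotides (1.80). NEAT1 at day 4 against day 0 turned positive at 8-fold (0.91), with merged footprints (0.0684), covered nucleotides (0.27) and pseudocount 2 (0.22), was -0.83 with equal numbers of peaks, and ranged from -0.38 to 0.29 without 1 library. At day 8 against day 0 it was -0.23 with equal numbers of peaks, 0.83 at 8-fold, 0.68 and past the threshold with every cluster, and -0.13 to 0.52 without 1 library. At day 8 against day 4 it was -0.0759 at 8-fold, 0.83 and past the threshold with every cluster, and -0.12 to 0.62 without 1 library. No cause was tested.

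In shares of all listed clusters, leaving out 1 library each (chosen after seeing the data) gave NEAT1 0.57 to 0.83 for day 8 against day 0, 0.64 to 0.94 for day 8 against day 4 and -0.26 to 0.0336 for day 4 against day 0. MALAT1 had 0.99 to 1.72 for day 8 against day 0, 1.23 to 1.83 for day 4 against day 0 and -0.64 to 0.0929 for day 8 against day 4. MALAT1 held 192 clusters without a threshold and 0 peaks at 8-fold or at −log10 p of 5. Of 23 regions of the RNAs at 8-fold, 4 passed at day 0 and not day 4, and 3 at day 0 and not day 8 (8.02% and 8.29% of all regions). Without 1 library, of 49 to 60 regions of the RNAs, 0 to 1 passed at day 4 and not day 0 (0.265% to 1.35% of all regions), 0 to 1 at day 4 and not day 8 (0.207% to 1.26%), 0 to 1 at day 8 and not day 0 (1.70% to 3.64%) and 0 to 3 at day 8 and not day 4 (1.86% to 3.95%). Over all loci, calls higher and lower numbered 314 and 405 at day 8 against day 0, and 456 and 78 with pseudocount 2, 2670 and 488 with no minimum and 179 and 408 with the proportional pseudocount. For day 4 against day 0 they were 293 and 169, and 871 and 22, 4218 and 240, and 95 and 327 under these 3. For day 8 against day 4 they were 122 and 99, and 34 and 23 with pseudocount 2. For day 8 against day 0, calls numbered 211 and 252 at −log10 p of 5, 123 and 162 with equal numbers and 127 and 160 at a minimum of 20. For day 4 against day 0 the last 2 gave 68 and 133, and 98 and 89, and for day 8 against day 4 they gave 95 and 39, and 73 and 58. Without day 0 replicate 1, 2 or 3, the calls for day 8 against day 0 were 230 and 199, 237 and 225, and 233 and 233, and for day 4 against day 0 142 and 70, 145 and 62, and 167 and 93. Without day 4 replicate 3 the calls for day 4 against day 0 were 130 and 102, and without day 8 replicate 3 those for day 8 against day 4 were 83 and 62. KCNQ1OT1 fell below 10 peaks at 8-fold, at −log10 p of 5 and with equal numbers, as did MEG3 with equal numbers, and both were below the minimum of 20. The motif alternative was not run.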
